A study of Mus musculus with 4 samples.

Results

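This is the comparison of both knockout arrays with both wild-type (WT) arrays of mouse dorsal raphe nucleus, and it used all 4 arrays of the series. The sides were formed from the labels alone, with D2R-KO and D2LR-KO mice on one side and WT mice on the other. Each pool came from 5 males of the C57BL/6J strain at an age of 10 weeks. The 4 groups comprised WT mice without stress, WT mice after forced swimming, D2R-KO mice after forced swimming and D2LR-KO mice after forced swimming. Stressed mice swam for 6 min a day over 4 days, and their tissue was collected 12 h after the final session. D2R-KO mice lack the dopamine D2 receptor encoded by Drd2, and D2LR-KO mice lack its long splice form. The sources used here do not give how either allele was made. The array pairs answer which genes separate the genotypes whether or not the WT mice were stressed. The arrays of a side were not replicates, since the knockouts differ in genotype and the WT pools differ in stress, so no difference could be tested and no value has a replicate error. Both knockout pools were stressed and no unstressed knockout pool was compared, so a response to stress that only knockouts make cannot be told apart from a difference of genotype. In pooled tissue, fewer cells of a type and less RNA per cell also cannot be told apart.

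Serotonergic neurons of the dorsal raphe make serotonin from tryptophan by tryptophan hydroxylase 2 and aromatic amino acid decarboxylase, load it into vesicles and take it back up through the serotonin transporter. The nucleus lies at the midline of the midbrain and rostral pons, beneath the cerebral aqueduct and near midbrain dopamine neurons. The D2 receptor lowers cyclic AMP through Gi proteins. Its long form is the main postsynaptic form, and the short form acts largely as an autoreceptor on dopamine neurons. Serotonergic neurons carry the serotonin 1A receptor, another Gi-coupled autoreceptor, which the series title names.

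Signal is given as log2(signal + 50) after background correction and quantile normalization, and the deposited intensities, which the authors scaled to an array median of 25, are given with it. For each gene the gap was the smallest of the 4 differences between a knockout and a WT array, positive where both knockouts lay above both WT arrays, negative where both lay below, and 0 where the sides overlapped. A gene was called when the gap reached 2-fold, or 1.5-fold for the gene lists, and its brighter side was above the blank spots on both arrays. Of 16383 genes, 15875 were above the blank spots on at least 1 array and were compared. Repeated control spots gave an SD of 0.0966 to 0.227 for a log2 difference between arrays, which covers spots and not mice.

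Few genes separated the genotypes. At 2-fold, 3 genes were higher in both knockouts than in both WT arrays, which is 0.0189% of those compared, and 11 were lower, which is 0.0693%. At 1.5-fold, 19 were higher (0.12%) and 57 lower (0.359%). Without a size limit, 19.8% of genes were higher and 19.5% lower on both knockout arrays. The higher genes were led by Tph2 of serotonergic neurons, Slc6a5 of glycinergic nerve endings and Pvalb of fast-spiking neurons. The lower genes were led by transthyretin and by genes of forebrain neurons.

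The stressed WT array stood apart from the other arrays. It correlated across genes with non-stressed WT at r = 0.965, with D2R-KO at 0.957 and with D2LR-KO at 0.960. Non-stressed WT correlated at 0.990 with D2R-KO and at 0.991 with D2LR-KO, and the knockouts correlated at 0.994 with each other. The median size of a gene's log2 difference was 0.0671 between the knockouts and 0.186 between the WT arrays. At 2-fold, D2R-KO differed from stressed WT at 425 higher (2.68%) and 403 lower genes (2.54%), and from non-stressed WT at 18 higher (0.113%) and 50 lower genes (0.315%). For D2LR-KO the counts were 409 (2.58%) and 286 (1.8%) against stressed WT, and 17 (0.107%) and 48 (0.302%) against non-stressed WT. Within a side, stressed WT differed from non-stressed WT at 229 higher (1.44%) and 336 lower genes (2.12%), and D2LR-KO from D2R-KO at 23 higher (0.145%) and 8 lower genes (0.0504%). Because the gap is the smallest of the 4 differences, a gene that is unusual on the stressed WT array alone was not called.

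**Figure D1:**
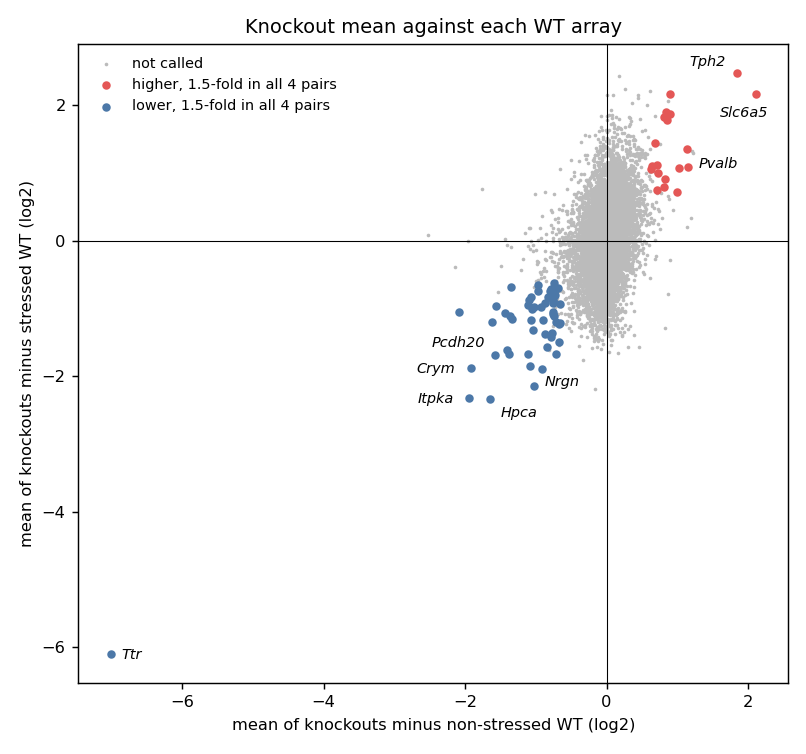
Each point is 1 of the genes compared, plotted as the mean of the knockout arrays minus non-stressed WT (x axis, log2) and minus stressed WT (y axis, log2). The 19 genes higher by 1.5-fold in all 4 pairs (red) and the 57 lower genes (blue) lie away from the grey cloud, which is taller than it is wide; Ttr lies far below the rest.

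Genes of serotonergic neurons included Tph2, the gene with the largest gap on the higher side. Of 15 members of their list, all detected, 3 were called higher at 1.5-fold and 0 lower, namely Tph2, Gchfr and Slc6a4, where 0.12% of all genes were called higher. All gene lists here were written with results of these data known, so such shares are no independent evidence. The list median of mean knockout minus mean WT was 0.27, against -0.01 over all genes compared. Under 10 other settings this list median lay between 0.17 and 0.61. The changes of the detection filter and the mean over probes left it as it was.

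Tph2, the rate-limiting enzyme of serotonin synthesis in neurons, had deposited intensities of 31.4 on non-stressed WT, 10.7 on stressed WT, 264.6 on D2R-KO and 151.5 on D2LR-KO. Its log2 signals were 6.70, 6.07, 8.83 and 8.25 in that order. Both knockouts were thus high and both WT arrays low. The gap was 1.55, or 2.93-fold, and the largest of the 4 pairs was 6.80-fold. The gap fell to 0.39 with the background taken from around each spot.

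Slc6a4, the serotonin transporter, had deposited intensities of 11.6, 6.8, 89.6 and 43.5 in the same order, with a gap of 0.83, or 1.78-fold. That gap lay between 0.59 and 1.82 under the other settings. Gchfr, the feedback regulator of GTP cyclohydrolase and so of the hydroxylase cofactor tetrahydrobiopterin, had intensities of 19.4, 18.5, 87.1 and 60.7. Its gap of 0.88, or 1.84-fold, was lost with the background from around each spot, where the sides overlapped. All 3 genes were brighter on D2R-KO than on D2LR-KO.

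The remaining serotonergic genes were not called. Slc18a2, the vesicular monoamine transporter, had log2 signals of 10.31 on non-stressed WT, 10.64 on stressed WT, 10.84 on D2R-KO and 10.88 on D2LR-KO, a gap of 0.21. Gch1, which makes the cofactor's precursor, had a gap of 0.25. Gata2, a transcription factor of serotonergic precursors, had a gap of 0.31 and signals of 6.27, 6.15, 6.83 and 6.58. Gata3, its partner in serotonergic neurons, overlapped between the sides. Ddc, the decarboxylase, also overlapped, with signals of 11.40, 11.27, 11.36 and 11.85. Maob, which breaks down monoamines, was slightly lower in the knockouts, with a gap of -0.10. Lmx1b and En1, factors that specify these neurons, overlapped. The summed deposited intensity of the list was 2810.1 on non-stressed WT, 2306.1 on stressed WT, 4002.6 on D2R-KO and 4155.5 on D2LR-KO. Most of it came from uncalled members. Without Ddc, the brightest, the sums were 1247.5, 1187.1, 2267.3 and 1901.7 in that order, so D2R-KO was then the highest. Without Ddc, Slc18a2 and Maob they were 328.5, 250.6, 848.0 and 587.0. No member was without a value on any array. Tph2 and Slc6a4 define the nucleus, and both were dim on the WT arrays; the share of raphe tissue in each pool was not tested.

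Promoter sequences are printed for Tph2 and Slc6a4, which were high together in both knockouts, and for Itpka and Nrgn, forebrain genes that were low together. Each is the 250 bases just before the start site in the RefSeq annotation of GRCm38.p6, written on the gene's own strand. Capitals mark AGATAA, a form of the site bound by GATA factors, or CAGATG, an E-box core bound by neuronal bHLH factors, searched on both strands, so that CATCTG is the second motif read on the other strand. The motifs were chosen after the gene values were seen. The Tph2 window is chr10:115185023-115185272 (minus strand), that of Slc6a4 chr11:76998347-76998596 (plus strand), that of Itpka chr2:119742087-119742336 (plus strand) and that of Nrgn chr9:37552746-37552995 (minus strand).
Tph2: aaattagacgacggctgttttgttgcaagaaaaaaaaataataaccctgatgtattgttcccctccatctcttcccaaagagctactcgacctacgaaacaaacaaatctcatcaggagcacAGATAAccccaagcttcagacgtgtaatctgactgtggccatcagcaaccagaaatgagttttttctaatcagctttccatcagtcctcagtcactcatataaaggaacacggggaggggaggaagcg
Slc6a4: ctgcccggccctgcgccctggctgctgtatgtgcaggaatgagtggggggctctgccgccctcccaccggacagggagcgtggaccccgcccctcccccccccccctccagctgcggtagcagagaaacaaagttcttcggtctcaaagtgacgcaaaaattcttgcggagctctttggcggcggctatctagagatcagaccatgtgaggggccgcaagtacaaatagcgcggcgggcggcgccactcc
Itpka: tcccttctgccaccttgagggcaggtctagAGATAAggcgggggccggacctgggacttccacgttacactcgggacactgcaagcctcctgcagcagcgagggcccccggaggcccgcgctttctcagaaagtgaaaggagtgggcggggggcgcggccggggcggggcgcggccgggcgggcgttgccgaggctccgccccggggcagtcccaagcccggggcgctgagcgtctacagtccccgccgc
Nrgn: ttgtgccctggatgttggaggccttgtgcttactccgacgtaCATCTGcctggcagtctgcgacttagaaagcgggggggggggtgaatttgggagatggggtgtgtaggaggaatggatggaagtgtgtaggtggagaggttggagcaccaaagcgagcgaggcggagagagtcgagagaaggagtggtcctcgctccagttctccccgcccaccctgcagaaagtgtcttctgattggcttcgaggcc
AGATAA was present once in the Tph2 and once in the Itpka window, and CAGATG was present in the Nrgn window on the other strand. Neither set of letters is in the Slc6a4 window. Of the 19 higher genes 14 had a promoter in the table, and 1 of these held AGATAA and 3 CAGATG before any of its listed start sites. Of the 57 lower genes 39 had one, and 6 held AGATAA and 7 CAGATG. Among genes compared, 9.07% of promoters held AGATAA and 13.3% CAGATG, and over all 32851 windows of equal length the shares were 9.99% and 14.4%. These matches describe letters only.

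The list of pons and medulla genes held 4 higher genes, namely Slc6a5, Pvalb, Hoxb5 and Hoxa5. These were 4 of 17 detected members, against 0.12% of all genes, and 0 were called lower. This list too was written with results of these data known, so its share is no independent evidence. The list median was -0.01, as was that of all genes, and it was 0.18 without stressed WT and 0.21 without D2LR-KO. Its summed deposited intensity was 4093.0 on non-stressed WT, 2493.4 on stressed WT, 7823.7 on D2R-KO and 6168.7 on D2LR-KO. Spp1 was its brightest member, and without it the sums were 1639.3, 1848.0, 3133.7 and 2149.6 in the same order. Stressed WT was thus the lower WT array with Spp1 and the higher one without it.

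Slc6a5, the glycine transporter of glycinergic nerve endings, had deposited intensities of 3.0 on non-stressed WT, 2.4 on stressed WT, 231.9 on D2R-KO and 53.2 on D2LR-KO. Both WT arrays were close to the blank spots, and D2R-KO was well above D2LR-KO. The gap was 1.36, or 2.56-fold. It was 0.95, short of 2-fold, with the background from around each spot and without background correction, and 3.76 from the deposited values plus 1. This is the only one of the 3 genes past 2-fold whose knockouts differed from each other (1.52) by more than its gap.

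Pvalb, a calcium-binding protein of fast-spiking neurons, had intensities of 140.7, 124.6, 405.5 and 336.8, with the arrays in that order. It is also in the cerebellum list, where it was the only 1 of 11 detected members called, against 0.12% of all genes. The cerebellum list median was -0.12. For Pvalb the region is therefore not given by these lists. Its WT arrays and its knockout arrays each lay within 0.13 of each other, and the gap was 1.03, or 2.04-fold. The 2-fold call was lost without background correction (0.95), with median scaling (0.91) and with cyclic loess (0.96), and the gap was 0.44 with the background from around each spot.

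Of the homeobox genes of the hindbrain 2 were called higher. Hoxb5, which patterns the caudal hindbrain, had intensities of 50.6, 4.2, 141.1 and 108.0, a gap of 0.78. Hoxa5 had intensities of 31.3, 1.8, 77.2 and 95.6, a gap of 0.75. In both, stressed WT was the lowest array, non-stressed WT the next, and both knockouts were higher still. Both fell short of 1.5-fold with the background from around each spot (0.53 and 0.51), and Hoxa5 also did without background correction (0.58).
Irx2, an Iroquois homeobox factor and no member of the lists, had intensities of 62.2, 18.9, 133.5 and 150.2, a gap of 0.76. Of 12 detected hindbrain Hox genes 2 were called higher and 0 lower, against 0.12% and 0.359% of all genes, and the median was 0.20. Without the size limit 6 of the 12 were higher on both knockouts and 1 was lower, against 19.8% and 19.5% of all genes. The uncalled ones were Hoxa2 with a gap of 0.44, Hoxd3 with 0.42, Hoxc5 with 0.30 and Hoxb4 with 0.29.

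Other genes of the same region were not called. Chat, the acetylcholine-synthesizing enzyme of motor nuclei, Glra1 and Glra3, glycine receptor subunits, Sncg and Vamp1 all overlapped. Spp1, a secreted phosphoprotein of large brainstem neurons, lay just outside the 1.5-fold limit, with intensities of 2453.7, 645.4, 4690.0 and 4019.1 and a gap of 0.58. Nefh, the heavy neurofilament subunit, had a gap of 0.10. In the list of glycine and GABA genes Slc6a5 was the only 1 of 16 called, against 0.12% of all genes called higher. The glial glycine transporter Slc6a9 had a gap of 0.29, and the vesicular transporter Slc32a1 and the enzyme Gad2 overlapped.

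The remaining higher genes came from no single list. Acaa1b, a peroxisomal thiolase, had deposited intensities of 41.1 on non-stressed WT, 5.5 on stressed WT, 104.0 on D2R-KO and 98.2 on D2LR-KO, a gap of 0.84. Rasgef1b, an exchange factor of Ras-family proteins, had intensities of 190.5, 69.3, 413.0 and 346.9, a gap of 0.75. Stressed WT was the lowest array for both genes. With the background from around each spot the gaps were 0.47 and 0.40, and with median scaling that of Rasgef1b was 0.57, all short of 1.5-fold.

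Limk1, a kinase that acts on the actin regulator cofilin, had intensities of 204.6, 140.9, 413.3 and 358.7 and a gap of 0.70. Klk6, a secreted protease of oligodendrocytes, had intensities of 226.9, 179.5, 433.0 and 485.0, with the same gap. Sh3bgr had intensities of 84.0, 74.8, 169.6 and 184.6 and a gap of 0.69. In these 3 genes the arrays of each side lay within 0.27 of each other. With the background from around each spot the sides overlapped for Limk1 and Sh3bgr, and the gap of Klk6 was 0.46. Limk1 had a gap of 0.52 with median scaling.
Tdgf1, a co-receptor of Nodal signalling, and Fgf1, a fibroblast growth factor, each had a gap of 0.64. The intensities of Tdgf1 were 18.7, 18.0, 47.3 and 54.1, and those of Fgf1 were 273.9, 168.1, 561.0 and 451.9. Tdgf1 fell short of 1.5-fold with the background from around each spot (0.30) and without background correction (0.47), and Fgf1 did with median scaling (0.45). Outside the naming rule, the chromatin remodeller Chd7 had a gap of 0.64, Fam177a one of 0.63, the acyltransferase Mboat1 one of 0.61 and the IgM receptor Fcmr one of 0.59. The second probe of Fam177a overlapped between the sides.

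**Figure D2:**
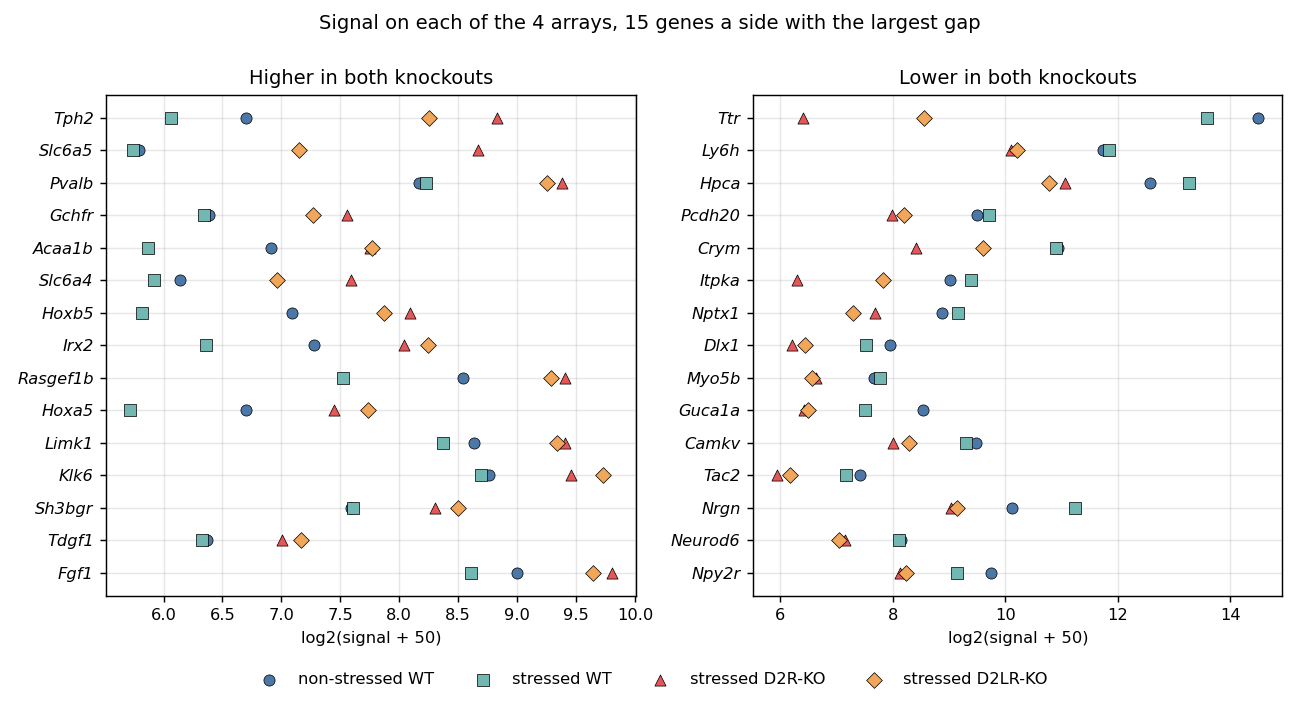
Each row is a gene and each marker its log2(signal + 50) on 1 of the 4 arrays (x axis), for the 15 genes with the largest gap on the higher side (left) and on the lower side (right). On the left, triangles and diamonds (knockouts) lie to the right of circles and squares (WT) in every row, as the choice of genes requires; the distance differs, from a gap of 1.55 for Tph2 to 0.64 for Fgf1. On the right the order is turned, and Ttr has a gap of -5.02.

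On the lower side Ttr stood by itself. Ttr encodes transthyretin, the carrier of thyroid hormone that choroid plexus epithelium secretes in bulk. Its deposited intensities were 12884.0 on non-stressed WT, 5720.2 on stressed WT, 20.3 on D2R-KO and 193.1 on D2LR-KO. Both WT arrays were bright and both knockouts dim, with D2LR-KO above D2R-KO. The gap was -5.02, or 32.5-fold, and it lay between -5.16 and -4.59 under the other settings.

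Of 11 detected members of the choroid plexus and ependyma list Ttr was the only 1 called, and 6 were lower on both knockouts by any size, against 0.359% and 19.5% of all genes. The list median was -0.38, and it was -0.10 without non-stressed WT and -0.73 without stressed WT. Without Ttr the summed deposited intensity was 3193.5 on non-stressed WT, 1277.2 on stressed WT, 2638.5 on D2R-KO and 2610.9 on D2LR-KO. Enpp2 and Igfbp2, the next brightest members, made up most of that sum, with 2368.9, 853.8, 2171.6 and 1812.3 for Enpp2 and 469.4, 265.7, 342.1 and 680.1 for Igfbp2. The sum of the remaining 8 members was 355.2 on non-stressed WT, 157.7 on stressed WT, 124.8 on D2R-KO and 118.5 on D2LR-KO, thus lowest on the knockouts. Of these sums Otx2, which is also in the midbrain list, held 82.3, 79.7, 53.8 and 58.2. Most of the difference between stressed WT and the knockouts thus came from this 1 gene. The 3 brightest were left out here after their values were seen. Folr1, the folate receptor of the plexus, had intensities of 62.8, 13.4, 2.2 and 3.9, a gap of -0.33. Kcne2, a potassium channel subunit of the plexus, had intensities of 45.6, 9.9, 7.6 and 4.0, a gap of -0.05. Clic6 had a gap of -0.12, Aqp1 one of -0.05 and Otx2, a factor of plexus development, one of -0.35. Kl and Sostdc1 were lowest or near lowest on stressed WT and overlapped. Every member had a value on every array. How much of the Ttr difference came with plexus tissue in the pools was not tested.

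Genes typical of cerebral cortex and hippocampus gave the most called members of the 32 lists. Of 18 detected members 7 were called lower and 0 higher, and 13 were lower on both knockouts by any size, against 0.359% and 19.5% of all genes. The list median was -0.70, between -0.76 and -0.57 under 10 other settings and between -0.94 and -0.52 when single arrays were left out. Among the 10, the changes of the detection filter and the mean over probes left it as it was. The list was written with results of these data known, so its direction is no independent evidence. Its summed deposited intensity was 10269.7 on non-stressed WT, 10346.6 on stressed WT, 4151.3 on D2R-KO and 4685.1 on D2LR-KO. The part that tissue from other brain regions had in these values was not tested.

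Hpca, the calcium sensor hippocalcin, had deposited intensities of 3547.1 on non-stressed WT, 4733.4 on stressed WT, 1413.9 on D2R-KO and 1042.5 on D2LR-KO. Its gap was -1.51, or 2.84-fold, and shrank to -0.35 with the background from around each spot. Crym, a thyroid hormone binding protein, had intensities of 1128.1, 857.5, 186.6 and 440.9, a gap of -1.28. Itpka, a kinase of inositol trisphosphate in dendritic spines, had intensities of 277.8, 292.7, 16.4 and 104.0, a gap of -1.19. In Crym and Itpka D2R-KO was clearly the lowest array, with the knockouts 1.20 and 1.53 apart. Crym fell short of 2-fold with median scaling and from the deposited values plus 10 (both -0.94) and plus 1 (-0.96).

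Nptx1, a pentraxin that clusters AMPA receptors, had intensities of 247.5, 250.0, 97.9 and 63.0, a gap of -1.18. Nrgn, the calmodulin-binding protein neurogranin, had intensities of 618.3, 1094.5, 316.1 and 310.4, a gap of -0.98. Neurod6, a bHLH factor of cortical projection neurons, had intensities of 138.1, 113.8, 56.2 and 47.1, a gap of -0.96. The knockouts were nearly equal in Nrgn and Neurod6. Cck, the peptide cholecystokinin, had intensities of 2000.2, 1393.0, 872.7 and 1151.6, a gap of -0.68. It fell short of 1.5-fold from the deposited values (-0.27), with median scaling (-0.30) and with the background from around each spot (-0.56).
Among members not called, Dkk3 had a gap of -0.53, the kinase Camk2a one of -0.41 and Lmo4 one of -0.34. Tbr1, a factor of deep cortical layers, had a gap of -0.10, and the bHLH factor Neurod2 overlapped.

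Inhibitory neurons of the forebrain gave 1 called gene of 12, against 0.359% of all genes. Dlx1, a homeobox factor of forebrain interneurons, had deposited intensities of 116.0 on non-stressed WT, 69.9 on stressed WT, 13.5 on D2R-KO and 21.1 on D2LR-KO. Its gap was -1.09, or 2.12-fold, and fell short of 2-fold with the background from around each spot (-0.89), without background correction (-0.83), with median scaling (-0.93) and with cyclic loess (-0.97). Its relatives Dlx2, Dlx5 and Dlx6 were lower on both knockouts too, with gaps of -0.24, -0.06 and -0.30, so none of these 3 was called. All 3 were dim. Intensities in the same order were 11.3, 11.1, 2.3 and 4.1 for Dlx2 and 8.7, 4.2, 1.7 and 2.3 for Dlx5. Those of Dlx6 were 14.3, 18.4, 6.0 and 4.6. The list median was -0.28, or -0.12 without non-stressed WT. Of the striatal genes of the list, Ppp1r1b had a gap of 0.13 and Penk one of 0.29. Pde10a and Rgs9 overlapped. Both were dim on every array, with 12.8, 11.3, 12.0 and 10.5 for Pde10a and 11.3, 14.5, 13.1 and 11.6 for Rgs9. Their overlap thus says little.

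Of 19 detected stress neuropeptides and receptors 2 were called lower (Cck and Cartpt) and 0 higher, and 11 were lower on both knockouts by any size, against 0.359% and 19.5% of all genes. The median was -0.27. Cartpt, a peptide of feeding and stress circuits, had intensities of 274.7, 451.7, 157.6 and 116.8, a gap of -0.78. Npy had a gap of -0.53, Trh one of -0.46, Nts one of -0.44, Pnoc one of -0.26, Vip one of -0.24 and Gal one of -0.22. Penk, the enkephalin precursor, went the other way with a gap of 0.29.
Pmch, the melanin-concentrating hormone of the lateral hypothalamus, had intensities of 79.8, 73.4, 24.2 and 36.5, a gap of -0.71, or -0.57 without background correction, short of 1.5-fold. Pmch and Cartpt were the 2 called of 16 detected hypothalamus and thalamus genes, again against 0.359% of all genes. Tac2, the precursor of neurokinin B, had intensities of 71.4, 50.6, 6.5 and 12.6, and its gap lay just short of 2-fold, or at -0.45 with the background from around each spot. Npy2r, a receptor of neuropeptide Y, had intensities of 477.8, 245.7, 145.1 and 148.4, a gap of -0.92, or -0.57 with median scaling, short of 1.5-fold.

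The other genes past 2-fold on the lower side were in none of the lists. Ly6h, a GPI-linked protein that binds nicotinic receptors, had deposited intensities of 1947.9 on non-stressed WT, 1709.9 on stressed WT, 701.6 on D2R-KO and 693.2 on D2LR-KO. Its gap was -1.53, or 2.89-fold, while the arrays of a side lay within 0.11. Pcdh20, a protocadherin, had intensities of 398.4, 372.3, 127.3 and 145.5, a gap of -1.29. Camkv, a synaptic pseudokinase, had intensities of 394.4, 278.1, 130.1 and 156.0, a gap of -1.02. In these 3 genes the gap was larger than the distance between the arrays of either side. Camkv fell short of 2-fold in 5 of the other settings, the smallest sizes being -0.74 with median scaling and -0.80 from the deposited values plus 10.
Myo5b, a motor of recycling endosomes, had intensities of 90.3, 85.9, 28.6 and 25.6, a gap of -1.04. It fell short of 2-fold with the background from around each spot (-0.86), without background correction (-0.82) and with median scaling (-0.95). Guca1a, an activator of guanylate cyclase, had intensities of 189.3, 68.6, 20.5 and 23.0, a gap of -1.02. For Guca1a the distance between the WT arrays was as large as the gap, which was -0.58 with the background from around each spot, -0.78 without background correction, -0.87 with median scaling and -0.94 with cyclic loess.

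Among glutamate genes 1 of 16 was called, against 0.359% of all genes called lower. Gria1, an AMPA receptor subunit, had intensities of 1685.6, 997.1, 818.3 and 528.5, a gap of -0.84. Its sides overlapped with the background from around each spot, and the gap was -0.17 with median scaling and -0.28 from the deposited values. Gria2, a second subunit, had a gap of -0.33, Gria3 one of -0.01, and Gria4 lay on the other side with 0.13. Slc17a6, the vesicular glutamate transporter of brainstem neurons, was low on stressed WT only and overlapped. The NMDA receptor subunit Grin1 overlapped as well.

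Further lower genes were outside the naming rule and were picked after their values were seen, for what they encode. Cnih3, an auxiliary subunit of AMPA receptors, had intensities of 159.8, 168.2, 47.3 and 81.5, a gap of -0.76. Cpne6, a copine of hippocampal neurons, had a gap of -0.91, and the calcium sensor Hpcal4 one of -0.89. Plk2, a kinase of synaptic scaling, had a gap of -0.90. Popdc3 had a gap of -0.82 with arrays of a side within 0.02, and Bok, a relative of Bcl2, one of -0.91 with arrays within 0.06. Thra, a thyroid hormone receptor, had a gap of -0.71, the immunophilin Fkbp1a one of -0.70 and the ephrin receptor Epha4 one of -0.75. Faah, which degrades anandamide, had a gap of -0.61, the huntingtin partner Hap1 one of -0.63, and Ahi1, which binds Hap1, one of -0.64. The chaperone list gave 1 called gene of 14, the disulfide isomerase Pdia6, against 0.359% of all genes called lower. Pdia6 had intensities of 1314.2, 1225.0, 906.8 and 871.3 and a gap of -0.62. That gap was -0.32 with median scaling and -0.43 from the deposited values, short of 1.5-fold. Just inside the 1.5-fold limit were Htr3a, Max, Cdh9 and Spink8, each with a gap of -0.59.

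The targeted gene did not separate the sides. Drd2 had deposited intensities of 26.8 on non-stressed WT, 43.8 on stressed WT, 20.9 on D2R-KO and 48.3 on D2LR-KO. D2R-KO was lowest and D2LR-KO highest, so the sides overlapped, in the main setting and in 9 of 10 others. Only 7 of these 10 settings changed any named gap. With the background from around each spot the Drd2 gap was -0.19. Where the probe lies relative to the deleted parts, and which splice forms it reads, is not known here, so its signal says little about the labels. Htr1a encodes the serotonin 1A receptor. Its intensities were 28.7, 22.6, 33.7 and 21.7, and it overlapped in all 10 other settings.

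Of 13 detected serotonin receptor genes 1 was called, Htr3a, the channel-forming subunit, on the lower side, against 0.359% of all genes. Its intensities were 37.4, 43.0, 5.7 and 14.6 and its gap -0.59, or -0.18 with the background from around each spot and -0.42 without background correction. Htr2a had a gap of -0.04, and Htr2c, Htr5b, Htr6 and Htr7 overlapped.
Of 11 detected dopamine genes none was called, where 0.12% of all genes were called higher and 0.359% lower. Th, tyrosine hydroxylase, had intensities of 897.3, 1155.5, 772.8 and 813.9, a gap of -0.19. Slc6a3, the dopamine transporter, had intensities of 454.3, 395.4, 278.4 and 436.6, a gap of -0.07. Aldh1a1, an enzyme of a subset of dopamine neurons, went the other way with 0.21. Of 24 detected genes of Gi and D2 receptor signalling and of 18 detected genes of Akt and GSK3 signalling none was called either. With so few genes called at all, the lack of a call in lists of this size says little.

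Htr3a is also the one called gene near Drd2. Within 15 places on either side of Drd2 on chromosome 9, 25 other genes were measured. Of these, 0 were called higher and Htr3a was called lower, against 0.12% and 0.359% of all genes. Their median difference was -0.09. On the whole chromosome lay 2 of the 19 higher genes and 6 of the 57 lower genes, 10.5% of each, while 6.02% of all genes compared lie there. The lower ones were Htr3a, Cck, Nrgn, Camkv, Olfm2 and Spink8, and the higher ones Acaa1b and Tdgf1.

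Stress-related lists had no called member that was not named above. Of 20 detected immediate early genes, which respond to neuronal activity, none was called, and 5 were lower on both knockouts by any size, against 19.5% of all genes. The median was -0.08, or -0.27 without stressed WT. Of 15 detected glucocorticoid-induced genes and receptors none was called (median -0.06, or -0.24 without stressed WT, and above 0 in 3 other settings, by up to 0.07). None was called among 15 clock genes and 16 interferon response genes. Over all genes 0.12% were called higher and 0.359% lower, so the lack of a call in lists of this size says little.

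Some lists had a shift without a called gene. Of 30 oxidative phosphorylation genes 13 were higher on both knockouts by any size and 1 was lower, against 19.8% and 19.5% of all genes, with a median of 0.23, or 0.09 without stressed WT and 0.15 without D2R-KO. Cox5a, a subunit of cytochrome c oxidase, had intensities of 3464.7, 685.1, 4633.0 and 4702.3, so its mean difference of 1.25 rested on a low stressed WT array and its gap was 0.16. Smooth muscle, endothelial and pericyte genes had 9 of 18 higher on both knockouts by any size and 2 lower, against the same 19.8% and 19.5%. Their median was 0.35, or 0.07 without stressed WT and 0.59 without non-stressed WT. Acta2, smooth muscle actin, had intensities of 319.9, 235.5, 512.7 and 1364.9, a gap of 0.48. Its D2LR-KO array was far above the rest. Meningeal genes had a median of 0.37 but only 1 of 15 was higher on both knockouts by any size. Their summed intensity was 2711.8 on non-stressed WT, 1308.3 on stressed WT, 2227.2 on D2R-KO and 5078.7 on D2LR-KO, so D2LR-KO alone was high. When single arrays were left out that median ranged from -0.10 to 0.74. Oligodendrocyte, astrocyte and microglia lists had no called gene, where 0.12% of all genes were called higher and 0.359% lower. Their medians were 0.03, -0.05 and 0.13. The latter 2 changed sign with the background from around each spot, and all 3 did when single arrays were left out. Of 14 oligodendrocyte genes 5 were higher on both knockouts by any size and 0 lower, and their median reached 0.34 from the deposited values plus 1. Their summed intensity was 22303.8 on non-stressed WT, 20236.9 on stressed WT, 28302.7 on D2R-KO and 27827.3 on D2LR-KO.

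**Figure D3:**
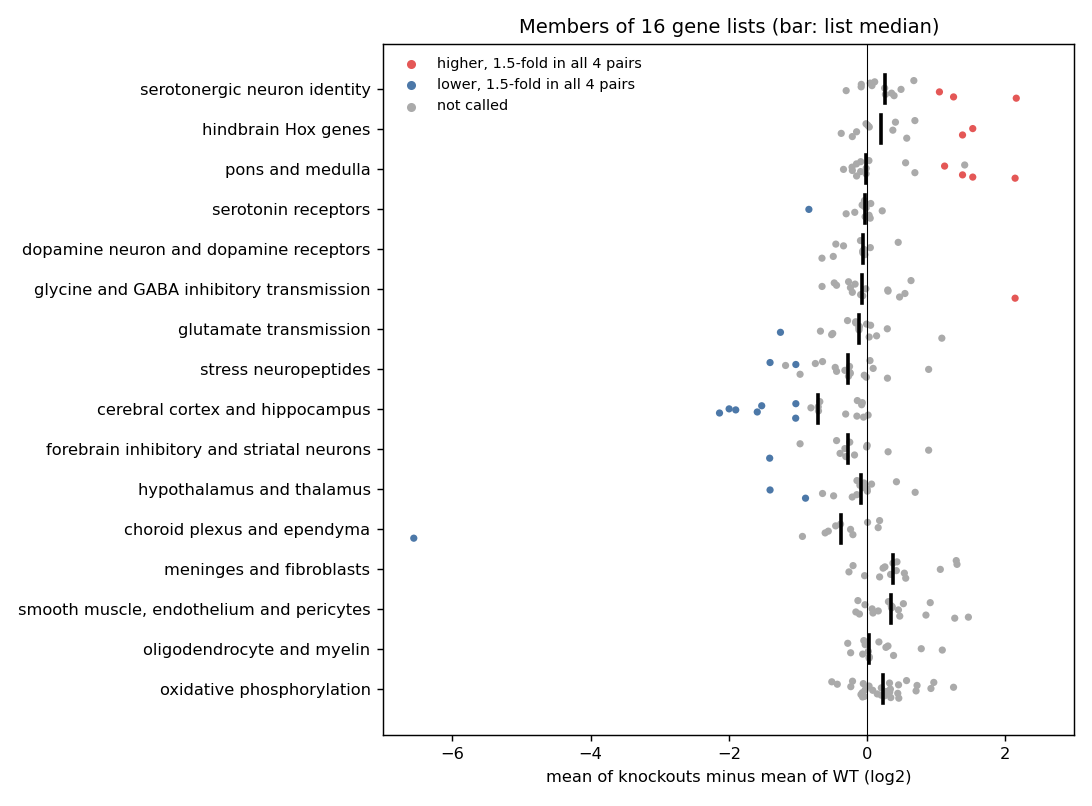
Each dot is a detected member of 1 of 16 gene lists, placed at mean of the knockouts minus mean of WT (x axis, log2), with a black bar at the list median. Red dots are members called higher and blue dots members called lower at 1.5-fold in all 4 pairs; the cortex and hippocampus list has the most blue dots (7) and the lowest bar (-0.70), and Ttr is the dot at the far left.

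Across the called genes the position of the WT arrays differed by direction. Of the 19 higher genes 16 had stressed WT below non-stressed WT, that is farther from the knockouts. Of the 57 lower genes 35 had stressed WT above non-stressed WT in log2 signal, again farther from the knockouts, and 22 had it below. That order depends on the scale, as some of these 35 had stressed WT below non-stressed WT in the deposited intensities. Examples are Ly6h (1947.9 on non-stressed WT and 1709.9 on stressed WT) and Pcdh20 (398.4 and 372.3). In log2 signal the WT array nearest to the knockouts was thus the unstressed one in 16 of 19 and in 35 of 57. Between knockouts, D2LR-KO was above D2R-KO in 9 of the 19 higher genes and in 40 of the 57 lower genes. The gap exceeded both the distance between the WT arrays and that between the knockouts in 12 higher genes (0.0756% of those compared) and in 49 lower genes (0.309%). Pvalb, Gchfr, Limk1, Klk6 and Sh3bgr were in this group on the higher side, and Ly6h, Hpca, Pcdh20 and Ttr on the lower side. Tph2 was in it too, whereas Slc6a5, Hoxb5, Hoxa5, Itpka and Nrgn were not.

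How many genes were called depended on the processing. Taking the background from around each spot gave 85 higher and 60 lower genes at 1.5-fold, of which 5 and 29 were among the 19 and 57. Without any background correction the counts were 13 and 41, all among the 19 and 57. The deposited values with 10 added gave 62 and 65, of which 19 and 42 were shared.

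**Figure D4:**
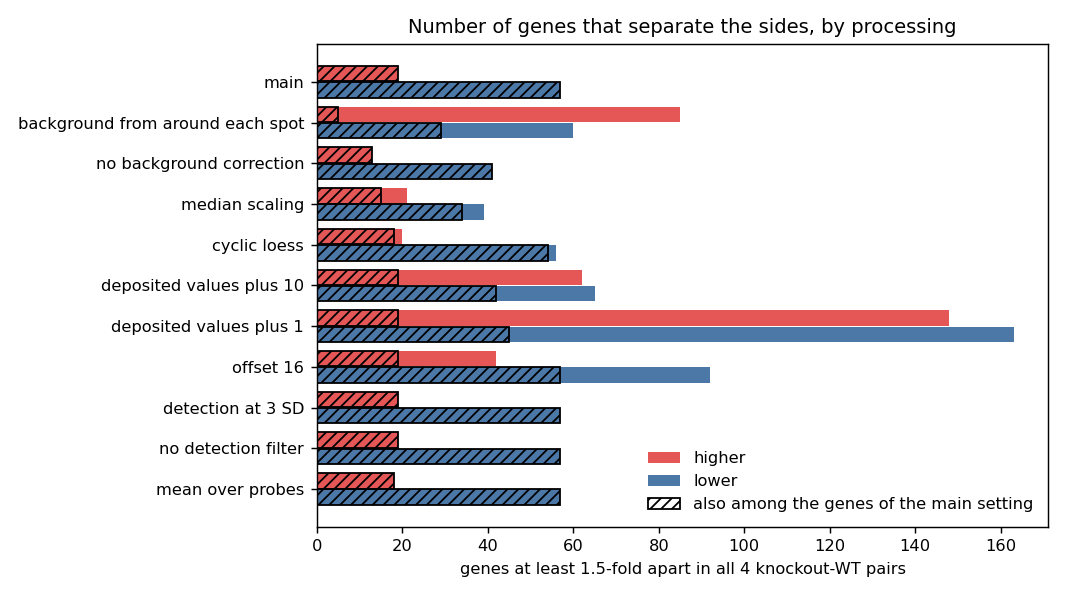
Bars give the number of genes at least 1.5-fold apart in all 4 knockout-WT pairs (x axis) for the main setting and 10 others, higher in red and lower in blue; the hatched part counts genes also called in the main setting. The totals run from 13 to 148 higher and from 39 to 163 lower genes, and the hatched part is smallest with the background from around each spot (5 and 29).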

How the data were processed

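RNA labelled as dorsal raphe nucleus was measured on 4 single-colour arrays, 1 per group, each from pooled mice, so the number of arrays limits the precision. Each array had 3 scans at 635 nm, per the file headers; the sources used here do not say how they were merged. The scanner files hold the median intensity of each spot, per the file headers without background subtraction. The authors' deposited table likewise gives an intensity per probe. Set against the spots, it is the spot less an array constant (36.7 to 38.8) over an array factor (1.51 to 2.05); the sources used here do not describe its making.

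Spot medians were corrected by normexp with the 2736 blank spots as negative controls (function nec of limma 3.58.1, R 4.3.3, offset 50), taken to log2 and quantile normalized over the 4 arrays. Deposited intensities are printed beside these log2 values. A probe was detected when it exceeded the blank spots' mean by 2 SD (38.0 to 40.3, against a median spot of 67.1 to 80.1), which 91.0% to 91.6% of 23465 gene spots passed. The series' probe table gave 16631 probes 1 gene symbol and 6842 none; 12501 of 16446 symbols stood in the RefSeq table of GRCm38.p6, 3883 older ones were updated and 62 kept. Of 229 genes with several probes the brightest was used, and 9 flagged probes were left out.

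The gap and its 2-fold and 1.5-fold calls were computed with pandas 2.3.3 and numpy 2.4.6 under Python 3.11.15, and the procedure was tested on simulated data. No test between arrays was possible. Named were the 15 genes a side with the largest gap among detected genes whose brighter side reached the median signal, Drd2, Htr1a, Tph2, Slc6a4, Slc6a5 and Ttr, and up to 6 called members of each of 32 gene lists. The comparison, the lists and the naming rule were chosen with earlier results of these data known. Alternatives changed the background, normalization, offset, source of values, detection filter, probe rule and arrays used.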

Additional observations from a re-analysis of the deposited data

Results flagged for a closer look

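Probes that no gene name was given for were outside the comparison of genes, and some of them separated the genotypes too. Of 6840 such probes 6340 were detected, and 4 of these were at least 1.5-fold higher in both knockouts than in both WT arrays, while 17 were lower. Among the 15875 genes compared, 19 (0.12%) were higher and 57 (0.359%) lower at that limit. At 2-fold, 0 probes were higher and 1 was lower (0.0158%), against 0.0189% and 0.0693% of genes. At both limits and in both directions the shares of these probes were thus below those of genes. That lower probe (M400010923) had deposited intensities of 227.0 on non-stressed WT, 266.9 on stressed WT, 87.9 on D2R-KO and 92.7 on D2LR-KO, a gap of -1.06 on the log2 scale. These probes were singled out because a signal appeared in data that the comparison of genes did not use.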

How the results depend on the processing

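At 2-fold, 3 genes were higher and 11 lower. The number higher was 13 with the background from around each spot (0 of the 3 genes shared), 1 without background correction, 8 from the deposited values plus 10, 37 from them plus 1, and 7 with an offset of 16. The number lower was 7 without background correction, 46 from the deposited values plus 1 and 18 with an offset of 16, and 13 with the background from around each spot, of which 7 were shared. The share of higher genes among the calls, 21.4% in the main setting, became 50% with the background from around each spot and 40.0% or 44.6% from the deposited values. When single arrays were left out, the number higher ranged from 5 to 285 and the number lower from 15 to 249. The largest counts, 285 and 249, arose without the non-stressed WT array, and without the stressed WT array the counts were 5 and 31; fewer pairs have to pass in each case. Of the 19 and 57 genes at 1.5-fold, 15 and 48 were still without overlap with the background from around each spot, 18 and 57 with the mean over probes, and all in the other 8 settings. The gaps of the 38 named genes changed under 7 of the 10 settings. Of the 266 gaps there, 149 moved by less than the spread of control spots, 117 by more and 0 reversed, and in 17 the sides overlapped, most of them Drd2 and Htr1a. The brightness around a spot followed the spot itself (r = 0.876 to 0.958), which limits that setting. No paired analysis was possible because each group had 1 array and the labels carry no replicate numbers. Dim genes are limited by the blank spots, and folds on the log2(signal + 50) scale understate their differences.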

Other observations

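Pituitary hormone genes were a group that neither side held together. Of 8 detected members none was called, where 0.12% of all genes were called higher and 0.359% lower. By any size 1 was higher on both knockouts, against 19.8% of all genes. Their summed deposited intensity was 627.1 on non-stressed WT, 756.1 on stressed WT, 1407.6 on D2R-KO and 760.1 on D2LR-KO, so D2R-KO alone was high. Pomc, the precursor of corticotropin and endorphin, had intensities of 48.9, 71.5, 283.5 and 49.6, with the arrays in that order, and overlapped between the sides.

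Galp, the galanin-like peptide, was high on stressed WT only, with intensities of 71.1, 305.6, 55.7 and 66.5 and a gap of -0.06. Its mean difference between the sides was -1.18, so a mean over the arrays of a side would have placed it among the lower neuropeptides. Glul, glutamine synthetase of astrocytes, was split in another way, with 728.9 on non-stressed WT, 90.6 on stressed WT, 474.3 on D2R-KO and 84.5 on D2LR-KO. It was low on 1 array of each side, and the sides overlapped.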
